A study of Drosophila melanogaster with 2 samples.

Results

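The genes described here encode subunits of the 5 protein complexes of oxidative phosphorylation in Drosophila melanogaster. They were chosen by symbol alone, as nuclear genes named ND-, Sdh, UQCR-, COX or ATPsyn in the annotation, and no binding value entered the choice. The rule found 87 genes among 13968 protein-coding genes on the nuclear chromosome arms: 40 of complex I, 7 of complex II, 9 of complex III, 16 of complex IV and 15 of complex V. Binding of CG30431, a zinc-finger protein, was measured by chromatin immunoprecipitation and sequencing (ChIP-seq) in embryos of 0 to 24 h, with males and females pooled. The embryos came from a transgenic line that expresses CG30431 fused at its C-terminus to green fluorescent protein (GFP). By the description in the labels the immunoprecipitation used an antibody against GFP, while another label field gives the antibody as CG30431. There is 1 group with 2 biological replicates and no second condition, so subunit genes were set against all other protein-coding genes. A whole embryo mixes ages and cell types, and the labels do not say what drives the transgene. The files hold peaks and no read counts, so sequencing depth is unknown. The authors' reproducible set on genome build dm6 has 3314 peaks, each with the authors' own signal value (70.8 to 1800, median 121), whose scale is not stated.

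Oxidative phosphorylation takes place in the inner mitochondrial membrane. Complex I takes electrons from NADH and complex II takes them from succinate. Coenzyme Q carries them to complex III, cytochrome c carries them on to complex IV, which reduces oxygen, and complex V uses the resulting proton gradient to make ATP. A few core subunits are encoded in mitochondrial DNA and all others in the nucleus. Complexes that hold both kinds need coordinated output of both genomes. Several subunit genes of the fly also have a second copy in the genome, and many such copies are known to be expressed in the testis.

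The peaks at subunit genes lay in or beside short stretches of DNA between 2 genes that point away from each other. Stretches at 5 of the 10 promoters with a peak are printed to show the sequence around the summit, the position of highest signal within a peak. Each is read 5′ to 3′ on the subunit gene's strand, from the RefSeq genome of the same assembly as dm6, and none overlaps an annotated exon. Capitals mark CACTG on either strand (CACTG or CAGTG) and the nuclear respiratory gene (NRG) element, an 8-base palindrome reported at fly genes for mitochondrial energy production (TTA, then C or T, then A or G, then TAA). The ND-ASHI stretch is the 300 bases around the summit (chrX:6679223-6679522, minus strand). The other 4 run from the base after the neighbour's start to the base before the subunit gene's start: ND-51 (chr2L:6062758-6062988, minus strand), ND-42 (chr3R:22027481-22027708, plus strand), COX5B (chr2L:6557503-6557799, plus strand) and COX6B (chrX:19744336-19744430, minus strand). The ND-42 stretch holds only the summit of the weaker of 2 peaks there (signal 80.9). The stronger summit (159) lies outside it, 31 bp inside the neighbour.
ND-ASHI: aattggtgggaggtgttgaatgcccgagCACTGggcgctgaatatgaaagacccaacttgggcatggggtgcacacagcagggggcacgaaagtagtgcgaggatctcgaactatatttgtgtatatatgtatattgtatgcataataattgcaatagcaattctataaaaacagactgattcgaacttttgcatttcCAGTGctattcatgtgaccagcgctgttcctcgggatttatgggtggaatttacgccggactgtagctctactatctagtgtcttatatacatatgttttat
ND-51: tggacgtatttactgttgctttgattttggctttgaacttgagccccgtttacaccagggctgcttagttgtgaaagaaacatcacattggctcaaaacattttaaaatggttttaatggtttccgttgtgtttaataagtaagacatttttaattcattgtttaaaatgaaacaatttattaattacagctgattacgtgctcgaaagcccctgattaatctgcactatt
ND-42: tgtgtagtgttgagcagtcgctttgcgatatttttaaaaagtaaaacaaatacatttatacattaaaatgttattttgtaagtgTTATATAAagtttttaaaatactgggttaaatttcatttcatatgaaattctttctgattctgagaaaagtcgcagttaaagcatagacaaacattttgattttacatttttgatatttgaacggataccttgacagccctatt
COX5B: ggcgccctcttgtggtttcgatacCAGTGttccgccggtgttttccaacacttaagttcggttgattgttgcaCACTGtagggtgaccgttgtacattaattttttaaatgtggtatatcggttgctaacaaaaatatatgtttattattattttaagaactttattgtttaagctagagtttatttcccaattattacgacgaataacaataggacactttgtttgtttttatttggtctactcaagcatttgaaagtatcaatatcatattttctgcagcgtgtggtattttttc
COX6B: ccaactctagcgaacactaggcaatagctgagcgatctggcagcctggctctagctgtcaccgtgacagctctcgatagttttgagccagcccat
CACTG occurred 2 times in the ND-ASHI stretch and 2 times in the COX5B stretch, and was absent from the other 3. At ND-51 and COX6B it lay just outside the printed stretch, with 1 match each within 100 bp of the summit. The printed promoters do not stand for all 10. Of those not printed, ND-24, ND-MWFE, ND-SGDH and COX7B had no CACTG within 100 bp of a summit, and ATPsynCF6 had it. The NRG element occurred 1 time in the ND-42 stretch. The GC content was 42.3% at ND-ASHI, 33.8% at ND-51, 26.8% at ND-42, 34.0% at COX5B and 54.7% at COX6B.

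Subunit genes carried CG30431-GFP at their promoters about as often as other genes. A reproducible summit lay within 500 bp of an annotated start, here called a promoter peak, in 10 of the 87 genes (11.5%, exact 95% interval 5.65 to 20.1). The share among the 13881 other protein-coding genes was 12.8% (1774 genes), inside that interval. Summits inside the gene but away from its starts added none of the subunit genes. By promoter or gene body the share was thus again 11.5%, against 17.2% of the other genes. Subunit genes are short, with a median length of 1100 bp against 2177 bp, and the part of length in this gap was not tested.

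The 10 promoters belonged to complexes I, IV and V. They comprised 6 of 40 genes of complex I (15.0%, interval 5.71 to 29.8), 3 of 16 of complex IV (18.8%, 4.05 to 45.6) and 1 of 15 of complex V (6.67%, 0.169 to 31.9). None of 7 genes of complex II or 9 of complex III had one, and such counts still allow shares of up to 41.0% and 33.6%. The intervals of all 5 complexes overlap one another and include the 12.8% of other genes, so no complex stood apart. They cover only the number of genes counted.

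**Figure D1:**
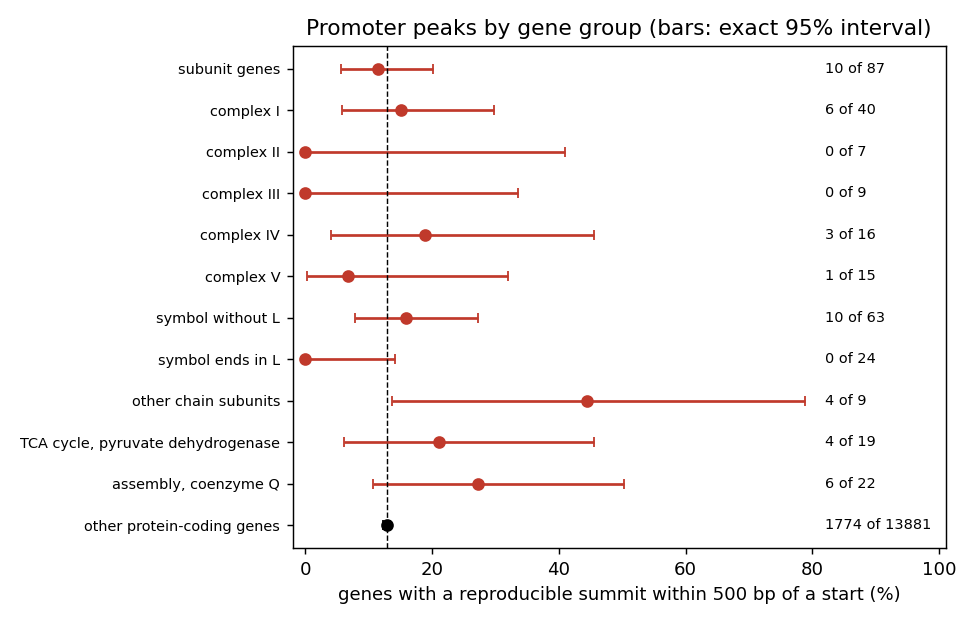
Share of genes with a promoter peak (x axis, %) in subunit genes, in each complex, in subunit genes whose symbol does or does not end in L, in 3 further mitochondrial gene lists and in other protein-coding genes. ND-MNLL is counted with the symbols that do not end in L. Points are shares, bars exact 95% intervals and the dashed line the 12.8% of other protein-coding genes; the subunit genes lie at 11.5%, and the intervals of all 5 complexes cross the line.

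Complex I, the NADH dehydrogenase, held the strongest sites. ND-MWFE, an accessory subunit gene on 2R, had a peak at 13158380 to 13158589 with a pooled signal value of 330; replicate 1 gave 181 and replicate 2 gave 148. It ranked 261 among all reproducible peaks, and its summit lay 155 bp upstream of the ND-MWFE start. The start of TppII, a tripeptidyl peptidase gene on the other strand, was closer, at 66 bp. ND-ASHI, another accessory subunit gene, had a peak on X at 6679274 to 6679481 with values of 284 pooled, 148 in replicate 1 and 135 in replicate 2. Its summit lay between ND-ASHI and Fum1, which encodes fumarase of the TCA cycle, 255 bp from the ND-ASHI start and 267 bp from the Fum1 start. These starts are separated by 521 bp, and the site is also inside an intron of a longer Fum1 transcript.

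ND-51 and ND-24 encode core flavoprotein and iron-sulfur subunits of the arm that oxidises NADH. The ND-51 peak on 2L (6062723 to 6063086) had values of 164 pooled, 67.8 in replicate 1 and 92.0 in replicate 2, with its summit 148 bp upstream. The ND-24 peak on X (17631990 to 17632353) was weaker, at 115 pooled with 63.2 in replicate 1 and 52.2 in replicate 2, with its summit 83 bp downstream of the start. These were the only 2 of the 7 nuclear genes for core subunits with a promoter peak (28.6%, interval 3.67 to 71.0). Of the 27 accessory subunit genes not named as a copy of another (a symbol ending in L, ND-MNLL excepted), 4 had one (14.8%, interval 4.19 to 33.7). The intervals overlap and both include the 12.8% of other genes. ND-75, the largest core subunit, which works beside these 2, had no entry within 500 bp of a start in any of the lists.

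At ND-42 and ND-SGDH, both accessory subunit genes, 2 overlapping peaks were listed side by side. The stronger ND-42 peak on 3R (22027267 to 22027630) had values of 159 pooled, 70.4 in replicate 1 and 88.3 in replicate 2. Its summit lay 260 bp from the ND-42 start, and only 31 bp inside Cchl on the other strand, which encodes the lyase that attaches haem to cytochrome c. The second ND-42 peak (22027466 to 22027829), 61 bp upstream of ND-42, had 80.9 pooled and 55.2 in replicate 1, and in replicate 2 both summits fell in the same entry. At ND-SGDH on 3L the stronger peak (12138401 to 12138764) had its summit 1 bp downstream of the start, with 118 pooled, 67.0 in replicate 1 and 44.8 in replicate 2. The weaker one (12138604 to 12138967), 202 bp upstream, had 86.5 pooled, 60.1 in replicate 1 and 19.9 in replicate 2. Its summit was 82 bp from the nearest start, which belongs to the neighbour on the other strand, and it ranked only 7684 in replicate 2.

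The 3 sites of complex IV, cytochrome c oxidase, were weaker than most of those of complex I. COX5B on 2L (peak 6557355 to 6557718) had values of 112 pooled, 50.5 in replicate 1 and 62.5 in replicate 2. Its summit lay 263 bp upstream of COX5B, the farthest of the 10, and 35 bp from the start of IFT52, an intraflagellar transport gene. COX6B on X (19744198 to 19744561) reached 87.1 pooled, with 47.2 in replicate 1, 40.5 in replicate 2 and the summit 45 bp upstream. COX6B shares this start with CG18809, and Rpp20, which encodes a ribonuclease P subunit, starts 96 bp away on the other strand together with CG33932. COX7B on 3L (17425110 to 17425473) reached 73.1 pooled, with 41.3 in replicate 1 and 33.1 in replicate 2. It ranked 3195 of 3314, and the start of Sec3, an exocyst gene, was nearer to its summit (75 bp) than that of COX7B (185 bp).

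In complex V, the ATP synthase, the only promoter peak was at ATPsynCF6, which encodes the coupling factor of the peripheral stalk. The peak on 3R (23356100 to 23356463) had values of 74.3 pooled, 44.8 in replicate 1 and 29.5 in replicate 2. Its summit lay 4 bp inside Sec13, a coat and nuclear pore protein gene, and 218 bp upstream of ATPsynCF6. No subunit of the catalytic or membrane rotor part named ATPsyn had a reproducible peak. These genes are few, so their lack of a peak is no result about those parts. The alpha subunit gene blw, outside the name pattern, had a promoter peak (148 pooled). Outside the 500 bp window the next nearest summit belonged to ATPsynE, 797 bp from its start with a signal of 111, against 263 bp for COX5B, the farthest inside it.

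**Figure D2:**
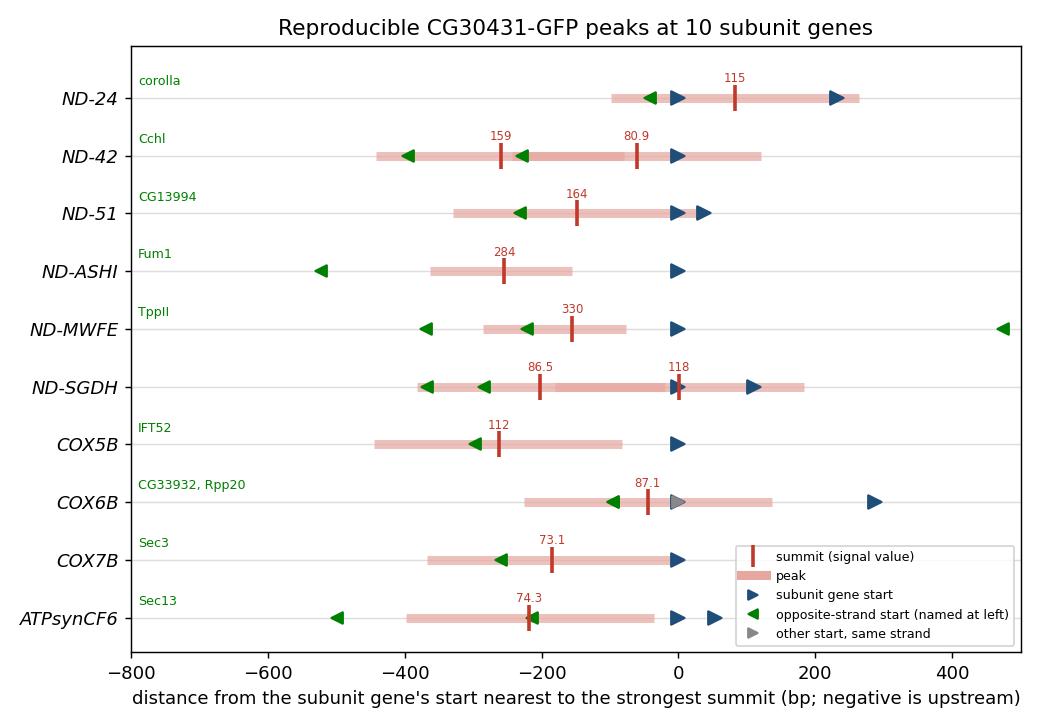
The 10 subunit genes with a promoter peak, aligned on the start nearest to the strongest summit (x axis, bp, negative is upstream). Pink bars are peaks, red ticks summits with their pooled signal value, blue arrowheads subunit gene starts and green arrowheads starts on the opposite strand (named at left, except at ND-SGDH); each gene has such a start upstream.

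Peaks at subunit genes had a lower median signal than other promoter peaks, within an overlapping range. The 12 peaks had a median pooled signal of 114, with a range from 73.1 to 330, against 139 at the 1350 other promoter peaks of protein-coding genes, a ratio of 0.816. Only 4 of the 12 exceeded that median of 139: those of ND-MWFE and ND-ASHI, that of ND-51 and the stronger one of ND-42. With only reproducible peaks above the median signal of 121 counted, these 4 genes remained (4.60% of 87, against 7.66% of other genes). All 4 belong to complex I, where they were 10.0% of its 40 genes, near the 7.66% of other genes. Within that smaller set the ratio of the medians was 1.09, above 1 in place of below it.

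The replicates gave values of the same order at these sites. Among the 3314 strongest entries of replicate 1 lay 11 of the 12 summits, among those of replicate 2 lay 10, and 9 lay in both. The median ratio of the replicate 1 value to the replicate 2 value was 1.19 at the 12 peaks (range 0.625 to 3.02), against 1.34 over the 3267 reproducible peaks with a value in both lists. The lowest ratios were those of ND-42 and ND-51, where replicate 2 was the higher. That of 0.625 was at the weaker ND-42 peak, whose summit fell in the same replicate 2 entry as that of the stronger one. This entry is thus counted for both summits in the counts and ratios here. The highest ratio was that of the weaker ND-SGDH peak. With 2 replicates no test of such ratios was made.

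**Figure D3:**
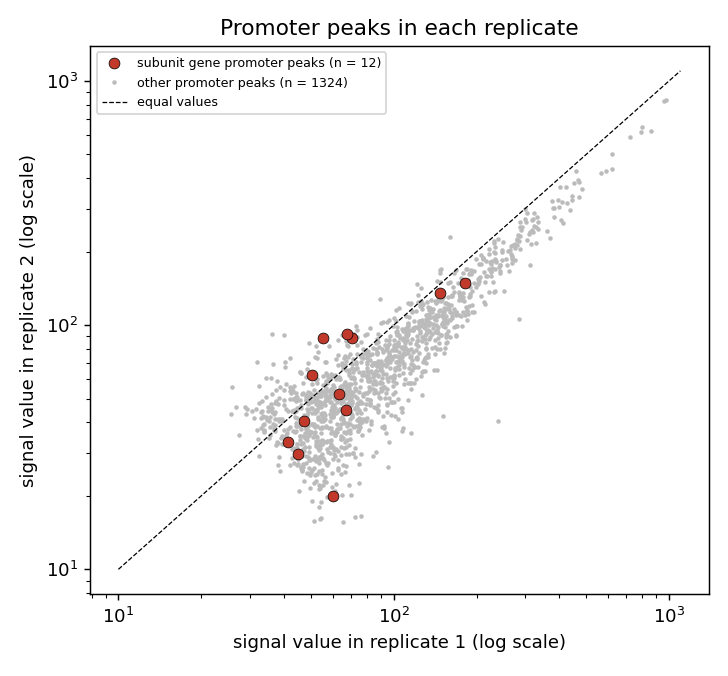
Signal value of promoter peaks in replicate 1 (x axis, log scale) and replicate 2 (y axis, log scale), for 12 peaks at subunit genes (red) and 1324 other promoter peaks with a value in both replicates (grey); the dashed line marks equal values. The subunit gene peaks lie within the cloud and mostly at its weaker end, with ND-MWFE (181 and 148) the highest.

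Every subunit gene with a promoter peak had a divergent neighbour, a gene on the other strand that starts at most 500 bp upstream. For ND-ASHI the pair lies farther down the gene, where another of its starts is 164 bp from another start of Fum1. This arrangement was looked at after the peaks had been seen, so its counts are a description. It occurred at 39 of the 87 subunit genes (44.8%), against 29.5% of other protein-coding genes. Of those 39, 10 had a promoter peak (25.6%, interval 13.0 to 42.1), against 24.7% of the other genes with such a neighbour. Of the 48 without one, none did (0%, interval up to 7.40), against 7.81% of other genes. Starts on both strands lay within 500 bp of the summit at all 12 peaks, against 40.7% of the other 1350. Subunit genes with a neighbour thus stood near the share of other genes with one. For those without a neighbour the interval ended below the share of other genes without one, but this depended on what was counted. Of the 48, 21 have a symbol that ends in L, and for the 27 others (0%, interval up to 12.8) the interval includes the 7.81%. With summits within 200 bp the share of other genes was 4.13%, inside the interval for 0 of 48. The 0 of 48 also rests on both replicates: in the strongest entries of replicate 2 alone, 2 of the 48 had a promoter peak (4.17%, against 7.88%). Among genes with a promoter peak, 100% of the subunit genes and 56.9% of the other genes had a divergent neighbour.

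The neighbour was often the nearer gene. At 7 of the 12 summits the nearest start was that of another gene, at 4 it was the subunit gene's own and at 1 (COX6B) both genes shared the start. Counting a summit only for the gene with the nearest start left 5 subunit genes with a peak (5.75%, against 9.15%): ND-24, ND-42, ND-ASHI, ND-SGDH and COX6B. ChIP-seq of such a stretch cannot tell which of the genes, if either, a site serves. Of the summits, 10 of 12 (83.3%, interval 51.6 to 97.9) were upstream of the subunit gene's start, at a median position of -170 bp. Over 1930 pairs of a peak and another protein-coding gene the share upstream was 88.8% and the median -147 bp.

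The subunit genes named as copies of another had no promoter peak. Their symbol ends in L, alone or with a number, and there were 24 of them (interval for 0 of 24: up to 14.2%). ND-MNLL also ends in L but was not taken as named for a copy, and was counted with the others. The 63 others had 10 (15.9%, interval 7.88 to 27.3, against the 12.8% of other genes). The intervals of the 2 classes overlap. For 20 of the 24 the partner is among the subunit genes, and for 5 of those copies the partner had a peak: ATPsynCF6L, COX5BL, ND-24L, ND-51L1 and ND-51L2. COX5BL lies just behind COX5B on the same strand, 1894 bp from the summit at the COX5B promoter, and no list had an entry within 500 bp of its start. Divergent neighbours were also rarer at the copies (3 of 24, 12.5%) than at the other 63 (36, 57.1%), and the part of this difference in the peak counts was not tested.

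Below the reproducible set, weaker entries lay at some further subunit promoters. The pooled list holds 30000 entries, background included, down to a signal of 22.3. An entry of it had its summit within 500 bp of a start in 26 of 87 subunit genes (29.9%, interval 20.5 to 40.6), against 36.0% of other genes. Of the 77 genes without a reproducible promoter peak, 16 had such an entry (20.8%, median signal 45.5), against 26.6% of other genes without a peak (median 32.2). By complex these were 7 of 34 in I, 2 of 7 in II, 2 of 9 in III, 2 of 13 in IV and 3 of 14 in V. Entries in both replicate lists were present at 11 of the 77 (14.3%, against 14.6%).

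The strongest of these weaker entries was at COX5A, a subunit gene of complex IV, with 67.7 pooled, 48.4 in replicate 1 and 27.0 in replicate 2. It lies on the edge of the reproducible set, whose lowest value is 70.8, and shares its promoter with glo, an RNA-binding protein gene. ATPsynC, which encodes the rotor ring of the ATP synthase, followed with 65.6 pooled, 26.4 in replicate 1 and 38.9 in replicate 2. ND-B22, an accessory subunit gene of complex I, had 63.8 pooled, 31.3 in replicate 1 and 35.0 in replicate 2. Neither of these has a divergent neighbour. The next were COX7AL2 (60.8 pooled, 41.6 and 20.0 in the replicates) and ND-MNLL (57.5 pooled, 37.5 and 17.0). COX7AL2 was the strongest of the 3 copies with an entry. In complex II the strongest pooled entry was that of SdhC, a membrane anchor subunit (40.0). Its summit lay 500 bp upstream, at the edge of the window, and nearer to Tctp, which starts 398 bp upstream on the other strand. In complex III the strongest was that of UQCR-11 (41.8), a gene with no entry in the replicate 1 list.

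**Figure D4:**
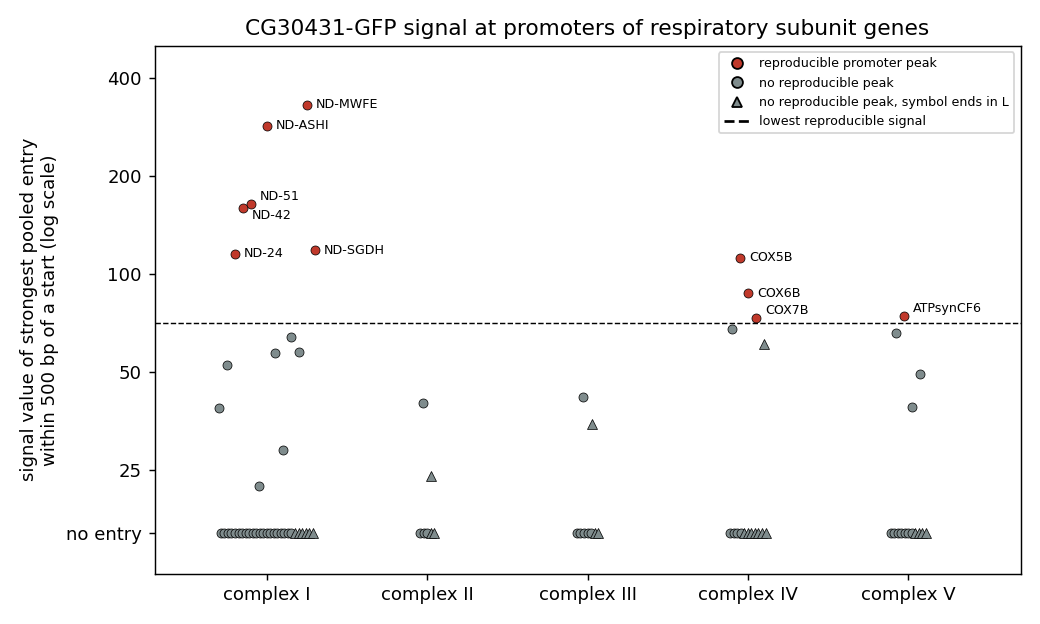
Signal value of the strongest pooled entry with its summit within 500 bp of a start (y axis, log scale) for each of the 87 subunit genes, by complex; genes with no such entry are drawn in the row marked no entry, which is not a value. Red points are the 10 genes with a reproducible promoter peak, triangles are genes whose symbol ends in L, and the dashed line is the lowest reproducible signal (70.8). ND-MNLL is drawn as a circle, since it was not counted as a copy.

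CACTG was about as frequent at the subunit gene peaks as at other promoter peaks, and the other short sequences had too few matches to compare. In windows reaching 100 bp to either side of the summit, CACTG on either strand lay in 5 of 12 (41.7%, interval 15.2 to 72.3), against 44.8% of the other 1350. The longer CACTGTG, which includes CACTG, lay in 1 (8.33% against 8.74%), at ATPsynCF6, and CACTGA, which does too, in none (0% against 13.0%). The NRG element lay in 2 (16.7%, interval 2.09 to 48.4, against 4.74%), at the weaker ND-42 peak and the stronger ND-SGDH peak. The DRE sequence TATCGATA, bound by the factor Dref, lay in 1 (8.33% against 4.52%), at the stronger ND-SGDH peak. CACGTG (2.37% of the other windows), the core CGCANGCG bound by Ewg, the fly relative of NRF-1 (1.11%), and the Motif 1 core GGTCACAC (3.11%) lay in none of the 12. The 12 windows, 2 each at ND-42 and ND-SGDH, had a mean GC content of 35.0%, against 35.9% at other promoter peaks.

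The same sequences were counted in promoters regardless of binding, from 250 bp upstream to 50 bp downstream of the most upstream start. CACTG lay in 7 of the 10 promoters with a peak (70.0%, interval 34.8 to 93.3). Without a peak, it lay in 25 of 53 promoters of genes not named as copies (47.2%) and in 4 of 24 copies (16.7%, interval 4.74 to 37.4). The share in other protein-coding genes was 46.2%. Motif 1 lay in 3 of the 10 (30.0%), in 12 of the 53 (22.6%, interval 12.3 to 36.2) and in 1 of the 24 copies (4.17%), against 7.62% of other genes. DRE lay in none of the 10, in 9 of the 53 (17.0%) and in none of the 24, against 9.35%. The NRG element lay in 2 of the 10 (20.0%), 3 of the 53 (5.66%) and none of the 24, against 5.17%. A match in these letters is not a site of binding, and a window without a match says nothing on the factor.

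Other genes of the same pathway had promoter peaks too. A list of 9 further genes held chain subunits whose names do not follow the pattern, and cytochrome c. Of these 9, 4 had a promoter peak (44.4%, interval 13.7 to 78.8, against the 12.8% of other genes). They were Cyt-c-d, a cytochrome c gene (355 pooled, 184 in replicate 1, 170 in replicate 2), blw, the ATP synthase alpha subunit (148, 80.0 and 70.6), levy of complex IV (87.5, 42.8 and 44.4) and cype of complex IV (81.5, 55.8 and 22.9). Only at blw was the gene's own start the nearest. The Cyt-c-d summit was 389 bp downstream of its start, and CG31808 started nearer to it.

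Of 19 genes of the TCA cycle and pyruvate dehydrogenase, 4 had a promoter peak (21.1%, interval 6.05 to 45.6). These were Idh3g, an isocitrate dehydrogenase subunit (336 pooled, 176 and 157 in replicates 1 and 2), Fum1 through the site it shares with ND-ASHI (284), mAcon1, aconitase (164, 93.6 and 67.9), and Pdhb, a pyruvate dehydrogenase subunit (163, 100 and 61.8). Of 22 genes of complex assembly and coenzyme Q synthesis, 6 had one (27.3%, interval 10.7 to 50.2). This list began with 44 symbols, and the 22 that did not match the annotation, most of them assembly factors, were not counted. Coq4 (460 pooled, 269 and 189) and CIA30, a complex I assembly factor (405, 208 and 193), had values above that of ND-MWFE, the strongest of the 87 subunit genes. Coq7 (220), Coq3 (148), Ttc19 of complex III assembly (102) and Pdss2 of the coenzyme Q side chain (94.4) followed. The intervals of the last 2 lists include 12.8%, and that of the first begins just above it. The lists are short and were chosen with earlier results of these data known.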

How the data were processed

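ChIP-seq of CG30431-GFP was done on 2 biological replicates of whole embryos, with DNA sheared to 200 to 800 bp, per the labels. Per the deposited readme, each replicate's dm6 list and a pooled list (30000 entries each) came from immunoprecipitated and control alignments, and the reproducible set from these lists by the irreproducible discovery rate. All 3314 reproducible peaks are the strongest of the pooled list. Which aligner, peak caller and reproducibility threshold were used is not given in the sources used here. The files give for every peak the authors' signal value and a deposited −log10 of a q-value (2.35 to 3.57 in the reproducible set). Signal values were compared within 1 list only, or side by side for 1 peak. The dm3 lists were not used.

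Gene models were Ensembl release 115 (BDGP 6.54), without transposable elements (18277 genes). The genome was the RefSeq copy of the same assembly: the start codons of all 86 subunit genes with an unbroken annotated one read ATG. A replicate's value was that of its strongest entry holding the summit. Shares have exact (Clopper-Pearson) 95% intervals, which cover counting error only. No test was made, since there is 1 group. Genes and lists were chosen with earlier results of these data known, and of 75 symbols in the 3 pathway lists 50 matched the annotation. Named were all subunit genes with a promoter peak, the 5 strongest below the set, those nearest the window's edge and list members with a peak. ND-75, COX5BL, SdhC and UQCR-11 were named after their values were seen. Alternatives were windows of 200 and 1000 bp, reproducible peaks above the median signal, nearest start only, any overlap, a shorter motif window and each replicate's 3314 strongest entries alone. The assignment of summits was checked on simulated summits. The software was scipy 1.17.1 and numpy 2.4.6 under Python 3.11.15, with matplotlib 3.10.9 for plots.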

Additional observations from a re-analysis of the deposited data

How the results depend on the processing

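Over 14 results and 94 alternatives, 75 stayed within 1.5 times the reported count, or within its interval or the spread between replicates, and 19 did not. With only reproducible peaks above the median signal, 4 subunit genes had a promoter peak (4.60%, against 7.66% of other genes). The count was again 4 with gene bodies counted (4.60%, against 10.4%) and with a divergent neighbour required (10.3%, against 15.2%). Complexes IV and V had 0 each and the other chain subunits 2 (22.2%), each against 7.66% of other genes. In that set 100% of the summits were upstream, and the ratio of median signals was 1.09. Counting only the nearest start gave 5 subunit genes (5.75%, against 9.15% of other genes), and again 5 with gene bodies (5.75%, against 14.1%). It gave 1 of complex IV (6.25%), 0 of complex V, 1 other chain subunit (11.1%) and 3 assembly or coenzyme Q genes (13.6%). Each of these stands against the same 9.15%. With 200 bp, complex V had 0 and the other chain subunits 2 (22.2%), against 8.26% of other genes. With 1000 bp complex V had 2 (13.3%, against 15.1%). Without replicate 1 or without replicate 2, complex V had 2 each time (13.3%) and the subunit genes 12 each time (13.8%). The shares of other genes were 12.8% and 12.6%. The subunit genes with no divergent neighbour were outside this tally. Without replicate 1, 2 of these 48 had a promoter peak (4.17%, against 7.88%), ATPsynC and ND-B22. In each of these replicate lists 9 of the 10 genes remained, and ATPsynCF6 was lost without replicate 1 and COX7B without replicate 2. No paired analysis was possible because there is only 1 group. Depth is unknown, and the counts per complex are too small to separate complexes.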

Other observations

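ATPsynE, a subunit gene of the ATP synthase, had a promoter entry in each replicate but none in the pooled list. On 3R, replicate 1 listed an entry at 14326848 to 14327207 with its summit 40 bp upstream of the ATPsynE start (signal 54.8, rank 2356), and replicate 2 one at 14326838 to 14327187 with its summit 55 bp upstream (59.5, rank 1389). The second entry at this gene, 796 bp downstream of the start, had 66.0 in replicate 1 and 40.3 in replicate 2 and was in the pooled list with 111, so it alone reached the reproducible set. Over the genome, 2616 of the strongest entries of replicate 1 had their summit inside a strongest entry of replicate 2, and 15 of them (0.573%) overlapped no pooled entry. Taking a promoter peak in both replicates' strongest entries as the criterion gave 9 subunit genes (10.3%, against 10.8% of other protein-coding genes), with ATPsynE added and COX7B and ATPsynCF6 lost. This was looked at after the data were examined, and its cause was not tested.

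COX8, a subunit gene of complex IV, was listed in replicate 1 alone, with a signal of 55.5 and its summit 70 bp upstream of the start.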
